A study of Rattus norvegicus with 9 samples.

Results

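The tumour necrosis factor (TNF) ligand and receptor superfamily was examined in cultured rat nucleus pulposus cells, which come from the soft centre of the disc between vertebrae. Members were the protein-coding genes whose symbol begins with Tnfrsf or Tnfsf, leaving out 1 gene named in the selection rule and not analysed here, together with Tnf, Fas, Faslg, Cd40, Cd27, Ltbr, Ngfr and Eda2r. This gave 34 genes, 23 receptors and 11 ligands, of the 22324 genes in the count table. The ligand genes Cd40lg and Cd70 were not analysed here.

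Poly(A) RNA of primary wild-type nucleus pulposus cells was sequenced in 3 groups of 3 libraries. BNPMT cells received an intervention of that name during doxorubicin-induced senescence. The labels give neither its composition nor its dose or timing. SEN cells were made senescent with doxorubicin, an anthracycline that damages DNA, at 200 nM for 24 h followed by 6 days in fresh medium. NC cells were the wild-type cells without a treatment label, although the same protocol text stands on all 9 libraries. The labels do not say how many animals the cells came from, or whether libraries of a group came from separate cultures. The p-values therefore measure the spread between libraries, which may be technical.

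Ligands of this superfamily are made mostly as trimers at the cell membrane, and some, TNF among them, are released from it by proteases. Their receptors cluster on binding and recruit TRAF adaptors, which lead to NF-kappaB and MAP kinase signalling, or, where the receptor carries a death domain, FADD and caspases, which lead to apoptosis. Decoy receptors bind ligand without a working intracellular domain. In the disc, TNF is known as an inflammatory cytokine that raises matrix-degrading enzymes.

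Between 35094282 and 41971877 counts were assigned to genes in BNPMT libraries, between 31206834 and 38391586 in SEN libraries and between 34514440 and 41873790 in NC libraries. At these depths 3 counts equal 0.0715 to 0.0961 CPM, the usual scaling of a count to the total of its library, and this was taken as the floor. The tissue label was checked against 12 nucleus pulposus markers, of which 9 had a row. Col2a1 and Acan, the main collagen and proteoglycan of cartilage-like matrix, had means of 1962 and 322 CPM in BNPMT, 6492 and 681 CPM in SEN, and 4571 and 587 CPM in NC. The markers summed to 2437 to 2658 CPM in BNPMT libraries, 7243 to 7372 CPM in SEN libraries and 5258 to 5530 CPM in NC libraries. The transcription factors Pax1 and Foxf1 had means of 149 and 29.2 CPM in BNPMT, 52.7 and 17.2 CPM in SEN, and 135 and 30.6 CPM in NC, and both were called lower in SEN against NC (log2 changes -0.90 and -0.38, edgeR adjusted p = 4.34e-09 and 0.000588). Col2a1, Acan, Cd24 and Sox9, of the same markers, were called higher in SEN against NC. Their log2 changes were 0.96, 0.67, 1.11 and 0.43 (edgeR adjusted p = 4.89e-10, 3.34e-07, 4.54e-09 and 5.88e-05). The Sox9 libraries of these groups overlapped in CPM. In BNPMT against NC, Col2a1, Acan and Sox9 were called lower (-1.27, -0.92 and -0.57) and Cd24 higher (0.44). Pax1 and Foxf1 were not called there. The part of these differences in the results on members was not tested. Of the notochordal keratins, Krt18 and Krt19 stayed below 1 CPM in every group mean. Krt19 was called higher in SEN against NC (log2 change 1.88, edgeR adjusted p = 0.00456), although its libraries overlapped in CPM. Krt8 had 2.18, 5.73 and 4.16 CPM in BNPMT, SEN and NC. It was called higher in SEN against NC (log2 change 0.91, edgeR adjusted p = 0.000223) and lower in BNPMT against both other groups. The first BNPMT and the first SEN library stood apart from the others of their group: the chi-square statistic per degree of freedom was 26.5 to 31.6 for pairs with BNPMT 1, against 3.41 for BNPMT 2 and 3, and 13.2 to 16.5 for pairs with SEN 1, against 6.54 for SEN 2 and 3. Counts of members called with and without these libraries are given beside the results they touch.

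Log2 changes were fitted to the counts with edgeR's quasi-likelihood test on TMM-scaled library sizes, and a gene was called at a Benjamini-Hochberg adjusted p below 0.05 over all 14956 genes that passed a filter on low counts. The scale matters here. TMM scaling put the median log2 change of all genes at -0.01 in SEN against NC and at 0.02 in BNPMT against SEN, whereas scaling to total counts put it at -0.46 and 0.52. Levels below are CPM of the total count, and log2 changes are on the TMM scale unless total counts are named.

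Of the 34 members, 23 passed the filter, 16 receptors and 7 ligands. Cd27, Tnfrsf13c, Tnfrsf8 and Tnfsf8 were at the floor, with no library above 3 counts. Tnfrsf11a, Tnfrsf18, Tnfsf10, Tnfsf11 and Tnfsf13b were near it, with fewer than 10 counts in the mean of their highest group. Cd40 and Tnfrsf14 reached a mean of 10 counts in 1 group and were not tested. Over 3 counts were found for 22 members in each BNPMT library, 24 to 26 in each SEN library and 21 to 22 in each NC library.

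In SEN against NC, 11 members rose, 6 fell and 6 were not called. Among all genes tested, 37.6% were called higher and 38.5% lower, against 47.8% and 26.1% of the tested members. With total counts 10 members rose and 8 fell, while the shares of all genes given here are on the TMM scale. Without SEN 1 and BNPMT 1, 12 members rose and 4 fell. With a log2 change of at least 1 as well, 9 members rose and 2 fell, where 20.0% of all genes rose and 14.6% fell by that much. The median log2 change was 0.65 over the 23 members and -0.01 over all genes tested. Tnf and Tnfrsf13b passed the filter only through the SEN libraries and so had to differ, and these counts are given as a description of the tested members. In bulk RNA, fewer cells of a type and less RNA per cell cannot be told apart.

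**Figure D1:**
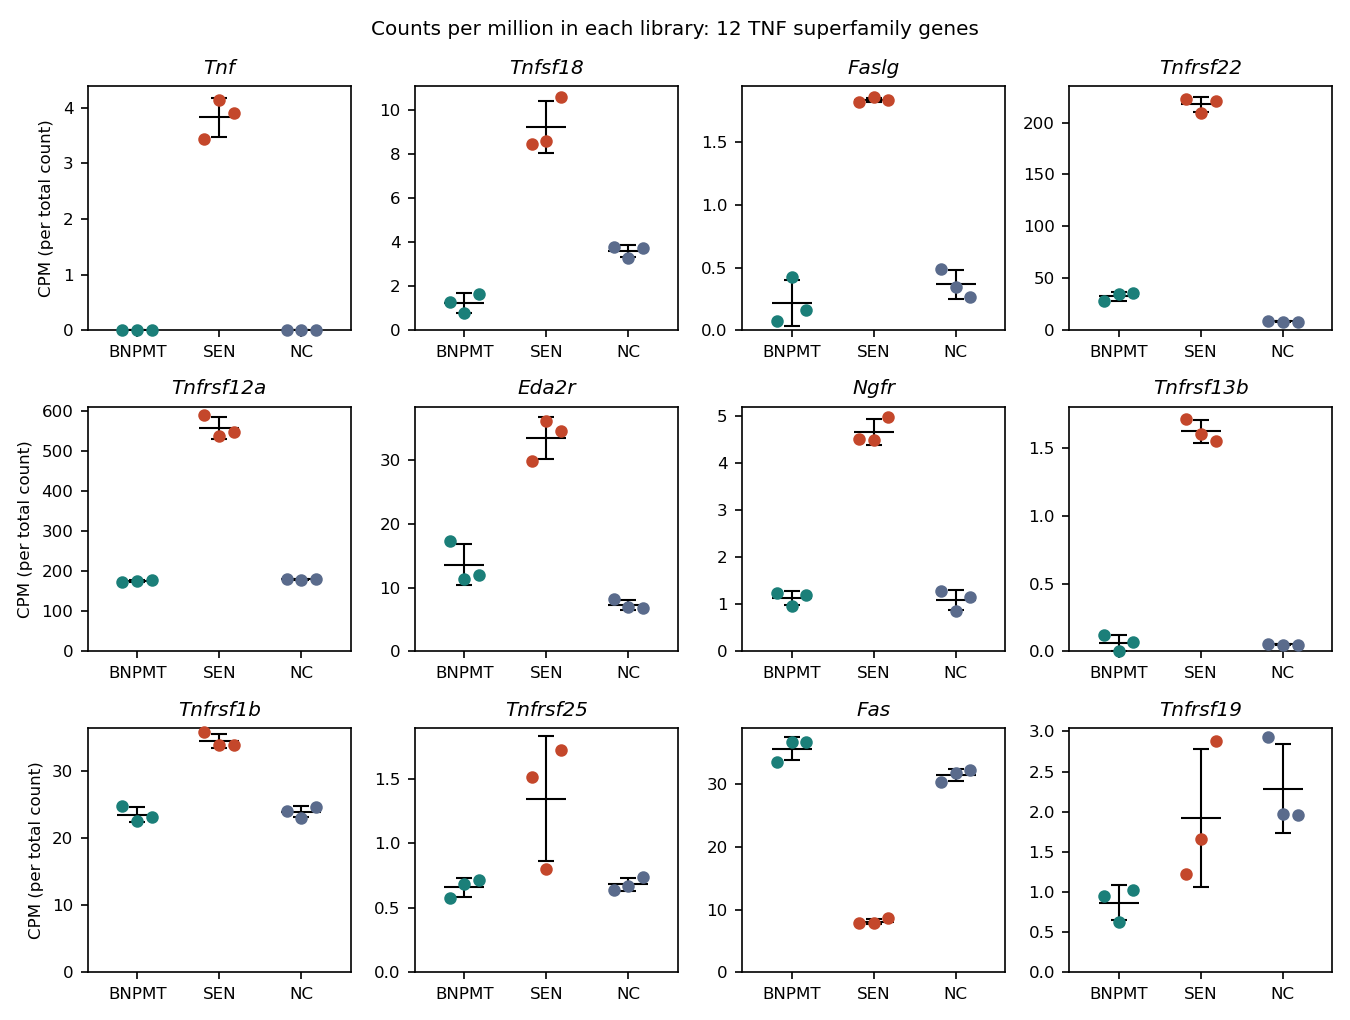
CPM of the total count (vertical axis, a scale of its own for each gene) in each BNPMT, SEN and NC library for 12 members; points are libraries, the long bar is the mean and the short bars are ± SD (n = 3 each). The 3 SEN libraries lie above all others for the first 10 genes, from Tnf to Tnfrsf25, below all others for Fas, and overlap the NC libraries for Tnfrsf19.

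Among the ligands, Tnf, the founding cytokine of the family, was found only in SEN libraries. It had 0, 0 and 0 counts in BNPMT libraries, 132, 129 and 138 counts in SEN libraries, and 0, 0 and 0 counts in NC libraries. The SEN libraries averaged 3.82 ± 0.354 CPM (SD, n = 3), at least 49.3-fold higher than NC with NC set at the floor of 3 counts per library, and BNPMT was at least 50.2-fold lower than SEN (edgeR adjusted p = 4.8e-08 and 3.68e-08). A count of 0 does not show that the transcript was absent, only that it lay below that floor. Tnf passed the low-count filter only through the SEN libraries and so had to differ. Its p-values describe the fit and are no support for a difference.

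Tnfsf18, the ligand of the GITR receptor, had 1.27, 0.798 and 1.67 CPM in BNPMT, 8.47, 8.62 and 10.6 CPM in SEN, and 3.77, 3.29 and 3.75 CPM in NC. The 3 groups did not overlap, with SEN highest and BNPMT below NC. The log2 change was 1.81 ± 0.17 in SEN against NC (± SE, edgeR adjusted p = 3.38e-07) and -3.37 ± 0.19 in BNPMT against SEN (adjusted p = 1.66e-09). The gene of its receptor, Tnfrsf18, held at most 7 counts in any library.

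Faslg, the ligand that triggers apoptosis through Fas, was present at low level, with 0.0717, 0.427 and 0.167 CPM in BNPMT, 1.82, 1.86 and 1.84 CPM in SEN, and 0.493, 0.346 and 0.263 CPM in NC. All SEN libraries lay above all others, and the BNPMT and NC ranges overlapped. It rose by a log2 change of 2.79 ± 0.38 in SEN against NC (edgeR adjusted p = 1.41e-05) and changed by -3.59 ± 0.41 in BNPMT against SEN (adjusted p = 2.2e-06; -4.40 without BNPMT 2).

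The other tested ligands moved less. Tnfsf12, known as TWEAK and the ligand of Tnfrsf12a, had means of 28.0 ± 1.81, 12.6 ± 0.625 and 19.3 ± 1.74 CPM in BNPMT, SEN and NC. Its log2 change in SEN against NC was -0.16 and not called on the TMM scale (edgeR adjusted p = 0.112), and -0.62 and called lower with total counts. It was also called lower without a filter (-0.22) and without NC 2 (-0.24). Tnfsf12 rose in BNPMT against SEN by 0.65 ± 0.09 (adjusted p = 1.1e-05; 1.15 with total counts). Tnfsf9, the ligand of the T-cell costimulator 4-1BB, fell in SEN against NC by 0.72 on the log2 scale and rose in BNPMT against SEN by 0.62 (edgeR adjusted p = 0.0257 and 0.0495). With total counts these changes were -1.17 and 1.12. Its means were 1.51, 0.700 and 1.56 CPM in BNPMT, SEN and NC, and both calls were lost when SEN 1 (-0.66 and 0.55) or SEN 3 (-0.52 and 0.41) was left out. The BNPMT call was lost in 7 of the 9 fits that left out 1 library, and the SEN call also without NC 3 (-0.68). Tnfsf13, the B-cell factor APRIL, and Tnfsf15, the ligand of Tnfrsf25, were not called in any comparison by edgeR on all libraries. Some alternatives called them. Tnfsf13 was called higher in BNPMT against SEN with total counts, at a log2 change of 0.97, and with limma on log2(FPKM + pseudocount), at 0.17 with a pseudocount of 1 and 0.63 with 0.1. Tnfsf15 was called lower in BNPMT against SEN with DESeq2 (-0.48), without SEN 1 (-0.59) and without both SEN 1 and BNPMT 1 (-0.67), and higher in SEN against NC without both of these libraries (0.47).

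Among the receptors above 1 CPM in every group mean, Tnfrsf22 had the largest rise in SEN. In the mouse it is a decoy receptor for the death ligand TRAIL. It had 27.9, 34.8 and 36.1 CPM in BNPMT, 222, 210 and 220 CPM in SEN, and 9.50, 8.55 and 8.0 CPM in NC. No 2 groups overlapped, and BNPMT lay between the other groups. The log2 change was 5.10 ± 0.11 in SEN against NC (edgeR adjusted p = 7.65e-14), -3.22 ± 0.10 in BNPMT against SEN (adjusted p = 1.83e-12) and 1.88 ± 0.10 in BNPMT against NC (adjusted p = 2.39e-08). Its neighbour and relative Tnfrsf26 had similar means in all groups, 14.0, 14.3 and 12.5 CPM in BNPMT, SEN and NC. Tnfrsf26 was called higher in SEN against NC (log2 change 0.65, edgeR adjusted p = 1.09e-05) although the libraries overlapped in CPM, and with total counts the log2 change was 0.20 and not called. Its call in BNPMT against SEN was also lost with total counts (-0.033). The separate levels of these related genes are uncertain, because no source used here gives the handling of shared reads.

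Tnfrsf12a, the TWEAK receptor, stood out in SEN. Its CPM were 173, 177 and 177 in BNPMT, 590, 539 and 548 in SEN, and 180, 178 and 181 in NC. All SEN libraries stood above the other libraries, whose CPM lay close together. It rose by a log2 change of 2.09 ± 0.05 in SEN against NC (edgeR adjusted p = 4.91e-13) and changed by -2.17 ± 0.05 in BNPMT against SEN (adjusted p = 3.28e-13). BNPMT against NC gave -0.08 ± 0.05, which was not called (adjusted p = 0.2), and -0.47, called lower, with a trend in gene length taken out.

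Eda2r, the receptor of ectodysplasin A2, had 17.4, 11.4 and 12.1 CPM in BNPMT, 29.9, 36.2 and 34.6 CPM in SEN, and 8.26, 6.99 and 6.78 CPM in NC. The groups did not overlap, with BNPMT between SEN and NC. Log2 changes were 2.65 ± 0.14 in SEN against NC (edgeR adjusted p = 9.54e-10), -1.80 ± 0.13 in BNPMT against SEN (adjusted p = 2.46e-08) and 0.85 ± 0.14 in BNPMT against NC (adjusted p = 0.000316).

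Ngfr, the low-affinity neurotrophin receptor, had 1.24, 0.969 and 1.19 CPM in BNPMT, 4.51, 4.49 and 4.98 CPM in SEN, and 1.27, 0.865 and 1.15 CPM in NC. Only the SEN libraries stood apart. The log2 change was 2.54 ± 0.18 in SEN against NC (edgeR adjusted p = 1.96e-08) and -2.53 ± 0.18 in BNPMT against SEN (adjusted p = 1.61e-08). Ngfr is also known from Schwann cells and the neural crest. The Schwann cell list, all 6 of whose genes had a row, summed to 177 to 210 CPM in BNPMT, 197 to 210 CPM in SEN and 153 to 159 CPM in NC. Of this, S100b, which nucleus pulposus cells also express, had 195, 199 and 152 CPM in BNPMT, SEN and NC. Sox10, which defines Schwann cells, had 0.144, 0.0608 and 0.192 CPM in BNPMT, SEN and NC.

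Tnfrsf13b, the B-cell receptor TACI, was close to the floor outside SEN. It had 5, 0 and 3 counts in BNPMT libraries, 66, 50 and 55 counts in SEN libraries, and 2, 2 and 2 counts in NC libraries. Every SEN library lay far above the other 6. The fitted log2 changes were 5.34 ± 0.47 in SEN against NC and -5.03 ± 0.45 in BNPMT against SEN (edgeR adjusted p = 1.56e-07 and 1.49e-07), the second being -5.75 without BNPMT 1. These sizes are imprecise, since the BNPMT and NC libraries hold so few counts. Tnfrsf13b also passed the low-count filter only through the SEN libraries, so its p-values describe the fit and are no support for a difference. Its partner receptor gene Tnfrsf13c, which binds the B-cell factor BAFF, had 0 counts in all BNPMT and NC libraries and 1, 2 and 3 counts in SEN libraries.

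Tnf and Tnfrsf13b are best known from immune cells, and some markers of other cell types were also higher in SEN. Of 11 macrophage markers 8 had a row, and they summed to 16.9 to 19.2 CPM in BNPMT, 31.3 to 34.4 CPM in SEN and 11.8 to 13.2 CPM in NC. With over 3 counts in some library, 4 of these genes were found in BNPMT, 5 in SEN and 5 in NC. Cd68, a lysosomal protein, had 0.527, 22.6 and 0.464 CPM in BNPMT, SEN and NC, and the integrin Itgam had 0, 3.97 and 0 CPM. Lyz2 had 0.0652, 1.55 and 0.236 CPM and Csf1r 0.0319, 0.403 and 0.0605 CPM in BNPMT, SEN and NC. Adgre1 and Tyrobp had 0 counts in all BNPMT and SEN libraries and at most 2 in any NC library. Their counts therefore do not set SEN apart. Lower in SEN were Fcer1g, with 0.708, 0.0496 and 0.443 CPM in BNPMT, SEN and NC, and the monocyte receptor Cd14, with 16.6, 4.04 and 11.4 CPM. The 3 B-cell markers with a row, of 6, summed to 0.228 to 0.381 CPM in BNPMT, 3.83 to 4.24 CPM in SEN and 0.420 to 0.608 CPM in NC. Cd79a had 0.0159, 1.27 and 0.00796 CPM and Cd79b 0, 2.44 and 0 CPM in BNPMT, SEN and NC. The other, Jchain, had 0.275, 0.393 and 0.486 CPM and was not called in SEN against NC (edgeR adjusted p = 0.672). The 6 endothelial markers summed to 0.453 to 0.997 CPM in BNPMT, 4.50 to 5.06 CPM in SEN and 0.321 to 0.454 CPM in NC. Pecam1 had 0.0254, 4.04 and 0.0165 CPM in BNPMT, SEN and NC, while Cdh5, which defines endothelium, had 0, 0.0174 and 0 CPM. The 6 T-cell markers with a row, of 8, summed to 0.574 to 1.54 CPM in BNPMT, 1.24 to 1.51 CPM in SEN and 0.840 to 1.08 CPM in NC. The part of other cell types in the levels of Tnf and Tnfrsf13b was not tested.

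Both TNF receptors were expressed in every library, and they moved in opposite directions. Tnfrsf1b, the receptor that lacks a death domain, had 24.7, 22.6 and 23.2 CPM in BNPMT, 35.7, 33.8 and 33.8 CPM in SEN, and 24.1, 23.0 and 24.6 CPM in NC. SEN lay above the other groups, which overlapped. Its log2 change was 0.98 ± 0.06 in SEN against NC (edgeR adjusted p = 7.72e-09; 0.53 with total counts) and -1.06 ± 0.06 in BNPMT against SEN (adjusted p = 3.06e-09; -0.55 with total counts). Tnfrsf1a, the death-domain receptor through which most TNF signalling runs, had means of 159 ± 3.57, 63.8 ± 1.74 and 138 ± 2.68 CPM in BNPMT, SEN and NC. Tnfrsf1a fell by 0.66 on the log2 scale in SEN against NC (edgeR adjusted p = 5.37e-08; -1.11 with total counts) and rose by 0.81 in BNPMT against SEN (adjusted p = 5.13e-09; 1.31 with total counts).

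Tnfrsf25, a death-domain receptor known mainly from T cells, had 0.574, 0.684 and 0.715 CPM in BNPMT, 1.51, 0.801 and 1.72 CPM in SEN, and 0.637, 0.667 and 0.740 CPM in NC. The SEN libraries lay above all others, SEN 2 only just, and BNPMT and NC overlapped. It rose by 1.44 ± 0.30 on the log2 scale in SEN against NC (edgeR adjusted p = 0.000547) and changed by -1.54 ± 0.30 in BNPMT against SEN (adjusted p = 0.000283).

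Fas, the death receptor for Faslg, went the other way from its ligand. Its CPM were 33.6, 36.7 and 36.6 in BNPMT, 7.89, 7.82 and 8.60 in SEN, and 30.3, 31.7 and 32.2 in NC. All SEN libraries lay far below the others. It fell by 1.50 ± 0.08 on the log2 scale in SEN against NC (edgeR adjusted p = 5.7e-10) and rose by 1.63 ± 0.08 in BNPMT against SEN (adjusted p = 1.99e-10). Tnfrsf10b, the TRAIL death receptor, had means of 26.0, 23.1 and 31.2 CPM in BNPMT, SEN and NC. Tnfrsf10b had a log2 change of 0.02 in SEN against NC (edgeR adjusted p = 0.783), and was called lower there with total counts, at -0.43, and higher with the length trend taken out, at 0.18. In BNPMT against SEN it was called lower on the TMM scale, at -0.34 (adjusted p = 0.000528), and higher with total counts, at 0.17, so it has no stable direction in that comparison.

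Of the remaining receptors, Ltbr, the lymphotoxin beta receptor, averaged 160 ± 6.28, 78.8 ± 4.06 and 134 ± 3.79 CPM in BNPMT, SEN and NC. It fell by 0.31 on the log2 scale in SEN against NC (edgeR adjusted p = 0.000275; -0.77 with total counts) and rose by 0.52 in BNPMT against SEN (adjusted p = 2.14e-06; 1.02 with total counts). Tnfrsf21, the death-domain receptor known as death receptor 6, averaged 14.0, 7.77 and 15.0 CPM in BNPMT, SEN and NC, and its log2 changes were -0.50 (edgeR adjusted p = 0.000563; -0.95 with total counts) in SEN against NC and 0.35 (adjusted p = 0.00599; 0.86 with total counts) in BNPMT against SEN. The second was 0.22 and not called without SEN 1 and BNPMT 1. Tnfrsf4, the T-cell costimulator OX40, held 16, 15 and 15 counts in BNPMT, 1, 7 and 2 counts in SEN, and 18, 18 and 12 counts in NC. Its log2 changes of -1.63 and 1.48 (edgeR adjusted p = 0.0194 and 0.0297) rest on few counts, and both calls were lost when SEN 1 or SEN 3 was left out, with -1.15 and 1.0 without SEN 1 and -1.36 and 1.21 without SEN 3. Tnfrsf4 also lost its SEN call without NC 1 (-1.46) and its BNPMT call without BNPMT 2 (1.42), while without SEN 2 the changes were -2.82 and 2.68. Tnfrsf9, the receptor 4-1BB, stayed below 0.3 CPM in every group mean and was not called.

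**Figure D2:**
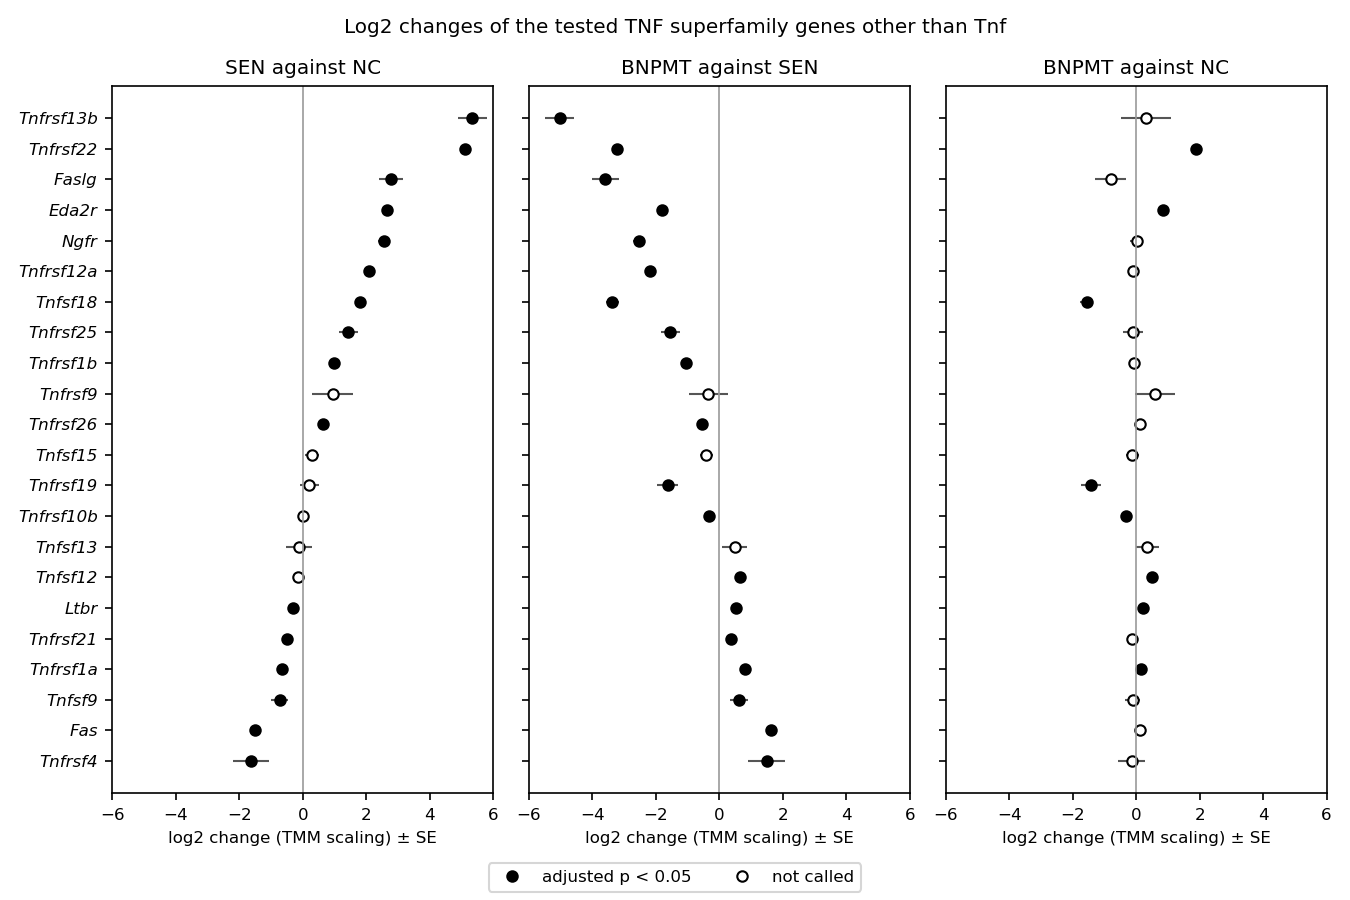
Log2 change ± SE (horizontal axis, edgeR on TMM-scaled counts) of the 22 tested members other than Tnf, in SEN against NC, BNPMT against SEN and BNPMT against NC; filled points have an adjusted p below 0.05 and open points were not called. Tnfrsf13b, Tnfrsf22 and Faslg lie farthest right in the first panel and farthest left of zero in the second, together with Tnfsf18, and most points of the third panel are open.

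In BNPMT against SEN, 7 members rose, 13 fell and 3 were not called, where 40.7% of all genes tested were higher and 39.9% lower. With a log2 change of at least 1, 2 members rose and 11 fell, where 17.4% of all genes rose and 22.0% fell. The median log2 change was -0.54 over the members and 0.02 over all genes. Tnf and Tnfrsf13b passed the filter only through the SEN libraries and so had to fall here. These counts are given as a description of the tested members. Scaling to total counts gave 9 higher and 11 lower members, while the shares of all genes given here are on the TMM scale. Leaving out SEN 1 and BNPMT 1 gave 4 higher and 14 lower. Tnf, Tnfsf18, Faslg, Tnfrsf22, Tnfrsf12a, Eda2r, Ngfr, Tnfrsf13b, Tnfrsf1b, Tnfrsf25 and Tnfrsf19 were the 11 that fell by at least 1. Fas and Tnfrsf4 were the 2 that rose by at least 1. This comparison shares the SEN libraries with SEN against NC, so a high or low SEN value enters both with opposite signs, and the changes of one comparison are no separate evidence for the other.

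Tnfrsf19, known as TROY and a receptor of progenitor cells, was lower in BNPMT than in both other groups. It had 0.957, 0.627 and 1.02 CPM in BNPMT, 1.22, 1.67 and 2.88 CPM in SEN, and 2.93, 1.98 and 1.96 CPM in NC. The BNPMT libraries lay below all others, while the SEN and NC libraries overlapped. Its log2 change was -1.63 ± 0.32 in BNPMT against SEN (edgeR adjusted p = 0.000377), -1.42 ± 0.32 in BNPMT against NC (adjusted p = 0.00208) and 0.21 ± 0.29 in SEN against NC (adjusted p = 0.534).

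BNPMT against NC shares no SEN library and shows how far the treated cells lay from cells without a treatment label. Tnf, at 0 counts in all 6 libraries, was left out. Of the other 22 members, 5 rose, 3 fell and 14 were not called, where 26.3% of all genes tested were higher and 26.5% lower. By at least 1 on the log2 scale, 1 member rose and 2 fell, where 2.67% of all genes rose and 3.60% fell. The genes that rose were Tnfrsf22 and Eda2r, given above, Tnfsf12 (log2 change 0.49, edgeR adjusted p = 0.000375), Ltbr (0.21, adjusted p = 0.0101) and Tnfrsf1a (0.15, adjusted p = 0.0223). Those that fell were Tnfsf18 (-1.56 ± 0.21, adjusted p = 4.52e-05), Tnfrsf19 and Tnfrsf10b (-0.31, adjusted p = 0.00179). With a trend in gene length taken out of the log2 changes, 3 members rose and 4 fell, and with SEN 1 and BNPMT 1 left out 6 rose and 3 fell. The small Ltbr change was not called without NC 2 (0.19) or without BNPMT 2 (0.17), nor with the length trend taken out (0.050). That of Tnfrsf1a was not called in 5 of the 9 fits that left out 1 library, among them each fit that left out an NC library, nor without a filter (0.15) or with the length trend taken out (0.068). Faslg was called lower in BNPMT against NC only without BNPMT 2, at -1.63 against -0.80 with all libraries. Fas was called higher there with total counts, with limma, without BNPMT 1 and without both SEN 1 and BNPMT 1, at 0.17 to 0.18. A change that was not called is not shown to be absent.

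Per gene length, as the deposited FPKM (count per kilobase of gene length, scaled to the total count), members can be compared with each other. Tnfrsf12a led in every group, with 169, 538 and 173 FPKM in BNPMT, SEN and NC. Ltbr and Tnfrsf1a came next in BNPMT, at 75.2 and 62.7 FPKM, and in NC, at 63.0 and 54.5 FPKM. In SEN the second place was held by Tnfrsf22, at 167 FPKM, against 25.3 FPKM in BNPMT and 6.66 FPKM in NC, ahead of Ltbr at 37.0 and Tnfrsf1a at 25.2 FPKM. Ltbr and Tnfrsf1a did not overlap between libraries in any group, nor did Tnfrsf22 and Ltbr. The receptors together summed to 371 ± 9.96 FPKM in BNPMT, 800 ± 32.3 FPKM in SEN and 336 ± 4.34 FPKM in NC (SD, n = 3 each). The Tnfrsf12a share of that sum was 45.0 to 46.2% in BNPMT libraries, 66.6 to 68.0% in SEN libraries and 51.3 to 51.6% in NC libraries.

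The ligands were far less abundant, with sums of 20.2 ± 1.27 FPKM in BNPMT, 15.4 ± 0.596 FPKM in SEN and 15.6 ± 1.30 FPKM in NC. Tnfsf12 held most of each sum, at 17.7, 7.94 and 12.2 FPKM in BNPMT, SEN and NC. Tnfsf18 was second in SEN, at 3.69 FPKM, against 0.497 FPKM in BNPMT and 1.44 FPKM in NC. Tnf followed in SEN at 2.27 FPKM. The summed ligand levels of SEN and NC differed by less than the spread between libraries.

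**Figure D3:**
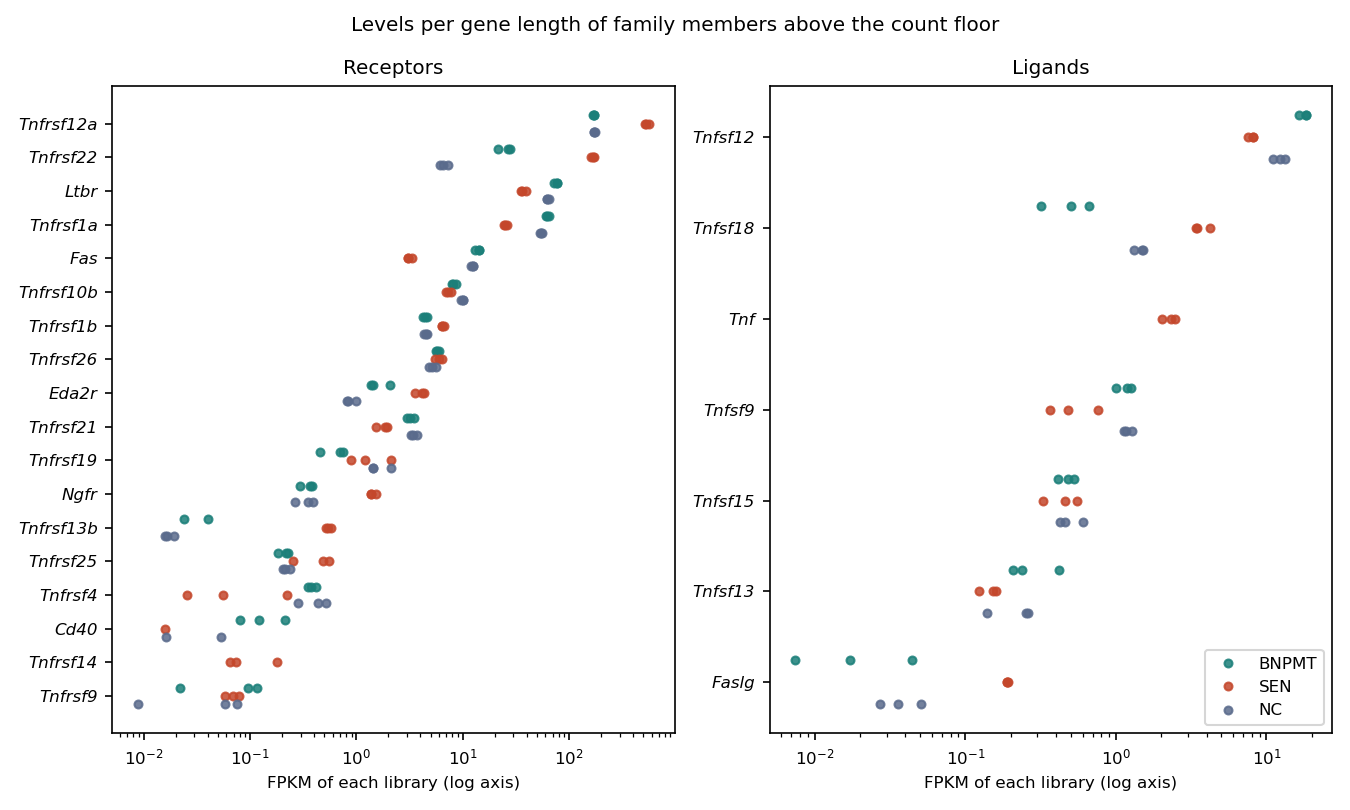
Level per gene length (horizontal axis, FPKM, log scale) of the members above the count floor, receptors left and ligands right, with 1 point for each BNPMT, SEN and NC library; libraries at 0 are not drawn. Tnfrsf12a, at 169, 538 and 173 FPKM in BNPMT, SEN and NC, is highest, and Tnf has points for SEN only.

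Ligands and receptors known to pair can be set side by side, with no test of the pairing. In SEN against NC, Tnf and Tnfrsf1b rose and Tnfrsf1a fell. Faslg rose and Fas fell. Tnfrsf12a rose, while its ligand gene Tnfsf12 was not called. Tnfrsf25 rose, while Tnfsf15 was not called. Tnfsf18 rose, while Tnfrsf18 was near the count floor in every group. Tnfsf9 fell, while Tnfrsf9 was not called.

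The members that were not tested add a few low counts. Tnfrsf14, the herpesvirus entry mediator, had 0, 0 and 0 counts in BNPMT, 18, 6 and 6 counts in SEN, and 0, 0 and 0 counts in NC, at least 3.57-fold higher in SEN than NC with NC at the floor. Tnfsf11, the osteoclast factor RANKL, had 12, 3 and 4 counts in SEN and 0 in all BNPMT and NC libraries, at least 2.24-fold higher in SEN than NC. SEN 1 was also highest in CPM, at 0.469 against 0.192 and 0.170 for Tnfrsf14 in SEN 2 and 3. Without SEN 1, an alternative chosen after seeing the data, these bounds were 2.33-fold for Tnfrsf14 and 1.35-fold for Tnfsf11. Cd40, a costimulatory receptor, had 9, 5 and 16 counts in BNPMT, 0, 0 and 1 counts in SEN, and 1, 0 and 4 counts in NC. Without the filter, edgeR called Tnfrsf14, Tnfsf11, Tnfrsf13c and Tnfsf13b higher in SEN against NC, and Cd40 higher in BNPMT against both other groups. It called Tnfrsf14, Tnfsf11, Tnfrsf13c and Tnfsf10 lower in BNPMT against SEN. These calls rest on few counts and, but for Cd40, on genes seen mostly in SEN libraries, so they are given as a description. In SEN against NC the edgeR adjusted p was 0.026 for Tnfrsf13c and 0.0354 for Tnfsf13b. For Tnfsf10 in BNPMT against SEN it was 0.0267. Tnfsf13b, the B-cell factor BAFF, held 4, 0 and 0 counts in BNPMT, 3, 3 and 3 counts in SEN, and 0, 1 and 0 counts in NC. Tnfrsf11a, the receptor of RANKL, held 1, 2 and 2 counts in BNPMT, 0, 1 and 1 counts in SEN, and 7, 1 and 3 counts in NC. Tnfsf10, the death ligand TRAIL, held 0, 0 and 0 counts in BNPMT, 1, 0 and 5 counts in SEN, and 0, 0 and 1 counts in NC.

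Promoter sequences of the members were read from 250 bases before to 50 after the gene start in RefSeq (build GRCr8, which is not the build of the counts). A promoter was found for 26 of the 34 members. Of the 9 members that rose by at least 1 on the log2 scale in SEN against NC, 8 had a promoter, and 5 of these, Tnf, Tnfsf18, Faslg, Tnfrsf22 and Eda2r, held the TATA box letters TATAAA on either strand, which 14.2% of 33469 promoters of the same length hold. Tnfrsf12a, Tnfrsf13b and Tnfrsf25 also rose by at least 1, held no TATAAA and are not shown. The 5 with the match are shown with Fas, the member that fell most among those above 1 CPM in every group mean. The windows are chr20:3626435-3626734 on the plus strand for Tnf, chr13:76366603-76366902 on the plus strand for Tnfsf18, chr13:76695454-76695753 on the minus strand for Faslg, chr1:208285655-208285954 on the minus strand for Tnfrsf22, chrX:66280571-66280870 on the minus strand for Eda2r and chr1:241211905-241212204 on the plus strand for Fas. Sequences run 5′ to 3′ along the gene's strand. Capitals mark TATAAA on either strand in the first 5, with overlapping matches joined, and a match to the kappaB motif in Fas.
Tnf: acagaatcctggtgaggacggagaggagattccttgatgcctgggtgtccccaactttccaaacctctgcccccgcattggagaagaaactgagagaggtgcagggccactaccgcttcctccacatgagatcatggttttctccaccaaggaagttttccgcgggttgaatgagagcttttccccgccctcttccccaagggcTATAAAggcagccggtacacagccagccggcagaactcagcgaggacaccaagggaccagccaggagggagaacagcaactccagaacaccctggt
Tnfsf18: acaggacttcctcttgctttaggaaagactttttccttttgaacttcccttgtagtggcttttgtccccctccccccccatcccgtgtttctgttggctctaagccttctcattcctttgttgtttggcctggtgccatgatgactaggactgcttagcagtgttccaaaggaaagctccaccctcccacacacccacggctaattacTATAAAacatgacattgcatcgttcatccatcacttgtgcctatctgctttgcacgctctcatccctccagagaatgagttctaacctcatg
Faslg: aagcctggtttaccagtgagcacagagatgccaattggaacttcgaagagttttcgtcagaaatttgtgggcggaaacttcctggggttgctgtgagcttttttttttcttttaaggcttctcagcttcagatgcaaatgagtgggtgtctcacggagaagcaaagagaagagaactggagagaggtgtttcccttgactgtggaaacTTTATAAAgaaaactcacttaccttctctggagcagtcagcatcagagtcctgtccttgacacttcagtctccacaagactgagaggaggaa
Tnfrsf22: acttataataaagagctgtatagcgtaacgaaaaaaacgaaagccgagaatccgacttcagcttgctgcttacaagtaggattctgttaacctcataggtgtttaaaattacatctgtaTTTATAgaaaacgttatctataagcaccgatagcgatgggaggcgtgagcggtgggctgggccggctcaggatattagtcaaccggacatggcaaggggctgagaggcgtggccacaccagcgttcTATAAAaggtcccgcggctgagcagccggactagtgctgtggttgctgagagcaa
Eda2r: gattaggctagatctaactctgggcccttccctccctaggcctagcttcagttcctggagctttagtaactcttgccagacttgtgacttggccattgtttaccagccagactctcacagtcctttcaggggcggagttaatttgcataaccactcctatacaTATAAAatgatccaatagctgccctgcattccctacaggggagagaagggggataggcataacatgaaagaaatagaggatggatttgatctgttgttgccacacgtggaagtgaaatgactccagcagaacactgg
Fas: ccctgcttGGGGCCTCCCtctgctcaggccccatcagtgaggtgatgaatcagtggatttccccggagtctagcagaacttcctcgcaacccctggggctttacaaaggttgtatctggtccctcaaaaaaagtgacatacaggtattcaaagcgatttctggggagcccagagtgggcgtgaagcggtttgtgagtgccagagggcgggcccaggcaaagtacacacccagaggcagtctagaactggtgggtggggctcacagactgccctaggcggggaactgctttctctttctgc

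The TATAAA match starts 46 bases before the gene start in Tnf and 42 before it in Tnfsf18. In Faslg the matches on the 2 strands overlap, starting 42 and 40 bases before the gene start. Tnfrsf22 holds one 131 bases before and one 5 bases before the start shown, the first of 2 starts of that gene, and Eda2r holds one 87 bases before. Of the 5 members with a promoter among the 6 that fell, none held TATAAA. It was also in Tnfsf15, which was not called, and in Tnfsf11, which was not tested. Of all 27 promoters of members, 8 held it, among them both promoters of Tnfrsf22, which overlap and share a match. Members above were counted once each, whereas the share over all promoters counts every promoter. The kappaB motif, found in 7.51% of all promoters, was in none of the 8 promoters of members that rose by at least 1, and its letters start 242 bases before the gene start in Fas. The AP-1 motif (TGANTCA with C or G as N, in 4.63% of promoters) was also in none of those 8 and in Tnfrsf1b. The cyclic AMP response element (TGACGTCA, 1.83%), the p53 half-site (7.98%) and the CArG box (1.64%) were in none of the 8. The motifs were chosen with the values known. A match describes letters in this window and is neither a binding site nor a cause, and a missing match says nothing about the factor.

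The signalling genes downstream of the receptors were read from 44 genes in 5 lists, all of which passed the filter. In SEN against NC 14 rose, 22 fell and 8 were not called, and with total counts 9 rose and 32 fell. The median log2 change was -0.24, against -0.01 over all genes tested. In BNPMT against SEN 21 rose, 16 fell and 7 were not called, and with total counts 29 rose and 7 fell. In BNPMT against NC 16 rose, 11 fell and 17 were not called. Among all genes tested, 37.6% were higher and 38.5% lower in SEN against NC, and 40.7% and 39.9% in BNPMT against SEN. In BNPMT against NC these shares were 26.3% and 26.5%. They are on the TMM scale and also stand beside the counts of each list below. No such share is given for total counts. There the median log2 change of all genes was -0.46 in SEN against NC and 0.52 in BNPMT against SEN.

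Of the 12 ubiquitin ligases and deubiquitinases of the TNF receptor complex, 4 rose and 7 fell in SEN against NC. Tnfaip3, the deubiquitinase that limits NF-kappaB signalling and is itself a known NF-kappaB target, changed most in the 44 genes, with means of 2.85, 41.6 and 3.18 CPM in BNPMT, SEN and NC. Its log2 change was 4.17 ± 0.11 in SEN against NC (edgeR adjusted p = 7.14e-13) and -4.36 ± 0.11 in BNPMT against SEN (adjusted p = 4.7e-13). Its partner Tnip1 went the other way, at 87.6, 25.3 and 60.8 CPM in BNPMT, SEN and NC, with a log2 change of -0.81 in SEN against NC (adjusted p = 3.08e-08). Spata2, which links the deubiquitinase CYLD to the complex, and Sharpin, of the linear ubiquitin ligase, fell by 1.42 and 0.58 on the log2 scale (adjusted p = 2.14e-08 and 1.57e-05). Birc2 and Rbck1 were called higher at 0.17 each on the TMM scale. With total counts both were called lower, at -0.29 and -0.28, and limma at either pseudocount also called them lower. Birc2 had 19.5 CPM in SEN and 23.8 in NC, and Rbck1 51.8 and 63.0, so neither has a stable direction in SEN against NC. Their calls were also lost in 8 and 7 of the 9 fits that left out 1 library, and without a filter, with the replicate block and without both SEN 1 and BNPMT 1 (0.11, 0.17 and 0.15 for Birc2, and 0.11, 0.17 and 0.094 for Rbck1).

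Of the 5 genes for shedding and processing, 2 rose and 3 fell in SEN against NC. Adam17, the protease that releases TNF and its receptors from the membrane, had 134, 215 and 108 CPM in BNPMT, SEN and NC, a log2 change of 1.44 ± 0.05 in SEN against NC (edgeR adjusted p = 1.41e-11). Rhbdf2, which carries Adam17 to the cell surface, was called higher at 0.53 (adjusted p = 0.000105), but its libraries overlapped in CPM, and with total counts its log2 change was 0.079 and not called. Adam10, a related protease, had 67.3, 20.5 and 75.9 CPM in BNPMT, SEN and NC, a log2 change of -1.44 ± 0.11 (adjusted p = 5.82e-08). Rhbdf1 and Furin fell by 0.43 and 0.22 on the log2 scale (adjusted p = 1.42e-05 and 0.0116). The Furin call was lost with DESeq2 size factors (-0.16) and once the trend in gene length was removed (-0.10).

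Of the 7 TRAF adaptors and relatives, 1 rose and 3 fell in SEN against NC. Tradd, the adaptor of Tnfrsf1a, had 29.7, 3.73 and 18.9 CPM in BNPMT, SEN and NC, a log2 change of -1.89 ± 0.12 in SEN against NC (edgeR adjusted p = 6.83e-09) and 2.50 ± 0.12 in BNPMT against SEN (adjusted p = 2.97e-10). Traf5 fell by 1.62 and Traf6 by 0.23 on the log2 scale in SEN against NC (adjusted p = 2.75e-09 and 0.0151), and Traf4 was called higher at 0.57 (adjusted p = 3.01e-06). The Traf4 libraries overlapped in CPM, and with total counts its log2 change was 0.12 and not called. The Traf6 call was lost with DESeq2 size factors (-0.17). In BNPMT against SEN Traf4 was called lower on the TMM scale, at -0.37, and had a log2 change of 0.13 with total counts.

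Of the 11 kinases of the complex, 4 rose and 4 fell in SEN against NC. Map3k7 was called higher at 0.15 on the TMM scale (edgeR adjusted p = 0.023), although its CPM was lower, at 73.4 in SEN and 90.5 in NC. Tbk1, which acts upstream of interferon genes, had 36.8, 74.0 and 27.2 CPM in BNPMT, SEN and NC, a log2 change of 1.90 ± 0.05 (edgeR adjusted p = 1.32e-12). Of the subunits that hold the kinase TAK1, Tab3 rose by 1.95 (adjusted p = 1.9e-08) and Tab1 fell by 1.94 on the log2 scale, with 25.6, 4.46 and 23.4 CPM in BNPMT, SEN and NC (adjusted p = 1.42e-10). Of the IkappaB kinase subunits, Chuk rose by 0.94 (adjusted p = 9.69e-08), and Ikbkb and Ikbkg fell by 0.52 and 0.48 (adjusted p = 4.47e-05 and 0.000133).

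Of the 9 genes of the death-inducing complex and necroptosis, 3 rose and 5 fell in SEN against NC. Ripk1, the kinase between survival and death signalling, had 34.2, 63.9 and 36.6 CPM in BNPMT, SEN and NC, a log2 change of 1.26 ± 0.06 (edgeR adjusted p = 2.92e-10). Casp8, the initiator caspase of death receptors, and Cflar, its inhibitor, rose by 0.95 and 0.92 (adjusted p = 1.96e-07 and 1.05e-08). Mlkl, which opens the membrane in necroptosis, Casp9 and Bid fell by 0.97, 0.94 and 0.91 on the log2 scale (adjusted p = 2.64e-06, 2.5e-07 and 3.45e-06). Casp8 was called lower in BNPMT against SEN on the TMM scale, at -0.49, and had a log2 change of 0.016 with total counts.

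**Figure D4:**
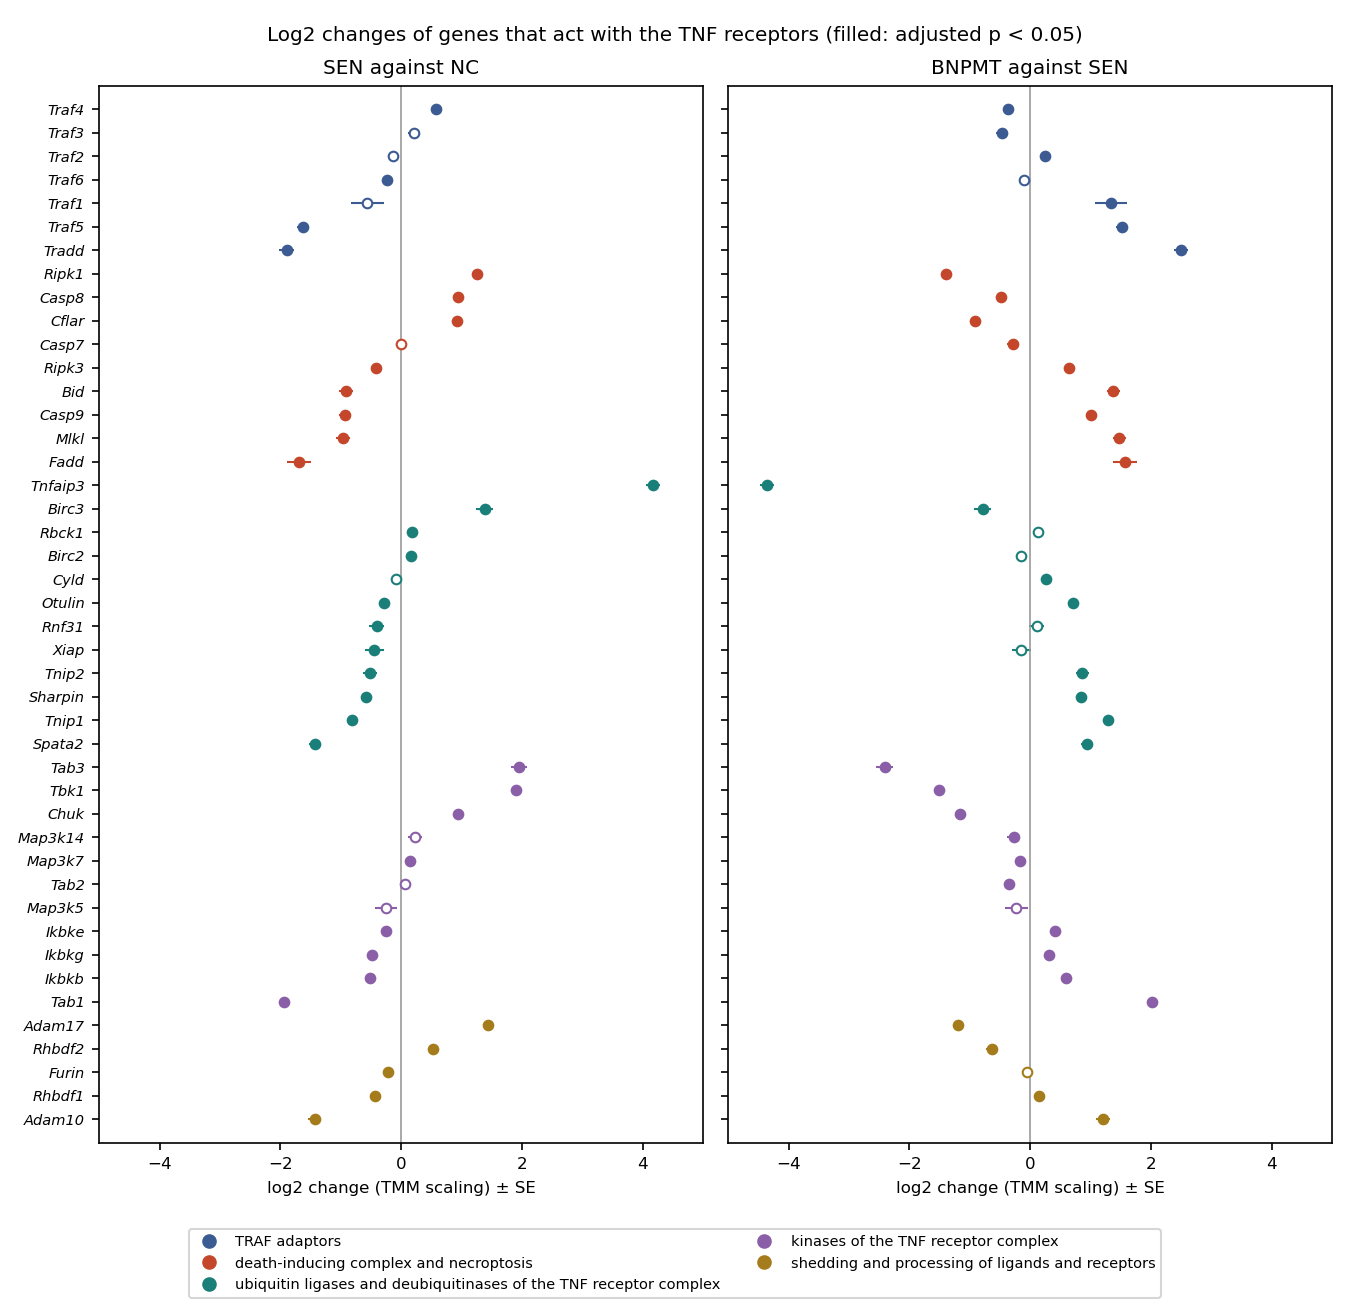
Log2 change ± SE (horizontal axis, edgeR on TMM-scaled counts) of the 44 signalling genes in SEN against NC and in BNPMT against SEN, coloured by list; filled points have an adjusted p below 0.05. Tnfaip3 lies farthest from zero in both panels, at 4.17 and -4.36.

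Some members overlap another gene in RefSeq, and no source used here says whether the counting used strand, so that reads of both genes cannot be told apart. These are Tnfrsf10b with Rhobtb2, Tnfsf12 and Tnfsf13 with Eif4a1l, Tnfrsf1b and Tnfrsf8 with a further coding gene, and Fas, Tnfrsf19, Tnfsf18, Tnfsf10, Cd27 and Tnfsf15 with non-coding genes or a pseudogene.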

How the data were processed

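RNA of 9 libraries was read from a deposited table of gene counts and FPKM. Per the submitters' processing notes, fastp, HISAT2, HTSeq and the build mRatBN7.2 were used. No source used here gives their versions, the annotation or the strand setting. The authors deposited counts per gene, which were tested as they stand, and FPKM values, which equal the deposited count divided by gene length and total count. The members, lists and tests were chosen with earlier results of these data known.

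Counts were fitted in R 4.3.3 with edgeR 4.0.16 (glmQLFit and glmQLFTest, TMM factors, filterByExpr) over all 9 libraries as 3 groups. The p-values were adjusted by the Benjamini-Hochberg method across 14956 genes and called below 0.05. The fit was tested on data simulated for pairs of groups with few genes changed. Such data cannot test the choice between TMM and total-count scaling. Library values and full statistics are given for members past the threshold with an absolute log2 change of at least 1 in SEN against NC or BNPMT against SEN and at least 1 CPM in the highest group mean. In each pathway list, up to 3 genes per direction with the smallest adjusted p and a mean of at least 5 CPM are named, and Map3k7 besides. A gene of these lists is not reported here. The 20 alternatives include DESeq2 1.42.0, limma 3.58.1 on log2(FPKM + 1) and log2(FPKM + 0.1), total counts, other filters, a correction for gene length, a replicate block and leaving out libraries. Floors cover counting error only.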

Additional observations from a re-analysis of the deposited data

How the results depend on the processing

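Over 20 alternatives, 14 of the 17 members called in SEN against NC kept their call and direction in all that tested them, the exceptions being Tnfrsf26, Tnfrsf4 and Tnfsf9. Of the 20 called in BNPMT against SEN, 15 did, the exceptions being Tnfrsf10b, Tnfrsf21, Tnfrsf26, Tnfrsf4 and Tnfsf9. Of the 8 called in BNPMT against NC, 6 did, the exceptions being Ltbr and Tnfrsf1a. Tnfrsf25 and Tnfrsf4 did not pass the filter of 1 CPM in 3 libraries and so had 19 alternatives. The cause of these differences was not tested. The log2(FPKM + pseudocount) scale understates changes of low genes, and genes at or near 3 counts per library are limited by depth. The bounds without SEN 1 were added after seeing the data.

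The count of members higher in BNPMT against SEN was 7, and 4 with SEN 1 and BNPMT 1 both left out. The count higher in BNPMT against NC was 5, 3 with the length trend taken out, and 3 to 6 when each library was left out in turn. Pathway genes higher in SEN against NC numbered 14, and 9 with total counts and with limma at either pseudocount. Those lower in BNPMT against SEN numbered 16, and 7 with total counts and with limma at either pseudocount. Those lower in BNPMT against NC numbered 11, 7 with limma at either pseudocount, 6 with the length trend taken out, and 7 to 14 when each library was left out in turn.

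Libraries with the same replicate number did not deviate together (correlations of deviations from the group means -0.24 to 0.058, against -0.084 to 0.157 for other pairs), and not every library correlated best with its own number. With the replicate block, 11 members rose and 6 fell in SEN against NC, 6 rose and 13 fell in BNPMT against SEN, and 5 rose and 3 fell in BNPMT against NC.

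Signs turned as follows, on the log2 scale. With total counts, limma at a pseudocount of 1 and limma at 0.1, the changes in BNPMT against SEN were 0.17, 0.15 and 0.17 for Tnfrsf10b, 0.15, 0.011 and 0.033 for Tnfrsf9, 0.093, 0.029 and 0.087 for Tnfsf15, 0.13, 0.13 and 0.14 for Traf4, 0.39, 0.26 and 0.37 for Traf6, 0.016, 0.0094 and 0.012 for Casp8, 0.35, 0.29 and 0.34 for Birc2, and 0.45, 0.43 and 0.45 for Furin. In SEN against NC they were -0.43, -0.39 and -0.43 for Tnfrsf10b, -0.24, -0.17 and -0.29 for Tnfrsf19, -0.16, -0.051 and -0.14 for Tnfsf15, -0.29, -0.24 and -0.28 for Birc2, and -0.28, -0.27 and -0.28 for Rbck1. Without a filter, Tnfrsf10b had -0.037 in SEN against NC and Furin 0.0071 in BNPMT against SEN. With the length trend taken out, the changes in BNPMT against NC were 0.11 for Tnfrsf1b, 0.11 for Tnfsf15, 0.25 for Traf5, 0.040 for Ripk1, -0.024 for Casp9, 0.079 for Tnfaip3 and 0.15 for Ikbkg, and in BNPMT against SEN 0.16 for Traf6 and -0.073 for Rbck1. With SEN 1 and BNPMT 1 both left out, they were -0.052 for Ngfr, -0.42 for Tnfrsf13b, -0.011 for Cflar and -0.023 for Birc2 in BNPMT against NC, -0.037 for Tnfrsf10b in SEN against NC, and 0.24 for Tnfrsf9 in BNPMT against SEN.

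When each library was left out in turn, uncalled changes that crossed zero ranged in BNPMT against NC from -0.14 to 0.13 for Ngfr, -0.42 to 0.79 for Tnfrsf13b, -0.37 to 0.036 for Tnfrsf4, -0.017 to 0.55 for Tnfsf13, -0.23 to 0.045 for Tnfsf15, -0.0087 to 0.035 for Cflar and -0.020 to 0.049 for Birc2. In SEN against NC they ranged from -0.037 to 0.050 for Tnfrsf10b, -0.22 to 0.45 for Tnfrsf19 and -0.38 to 0.022 for Tnfsf13. In BNPMT against SEN they ranged from -0.50 to 0.13 for Tnfrsf9 and -0.14 to 0.0097 for Furin.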
